A study of Mus musculus with 14 samples.

Results

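Mouse tumours that received a polymer carrying paclitaxel and an siRNA to PD-L1 were compared with tumours that received dextrose solution, both collected at day 7. The comparison was chosen by group label alone: the 4 libraries titled 2E'/PTX with siPD-L1 (called siPD-L1 here) were set against the 3 libraries titled D5W, so 7 of the 14 libraries of the series entered it. Tumour cells were implanted under the skin of C57BL/6 mice. Injection into the tumour followed once it measured about 150 mm3. D5W was read as 5% dextrose in water, PTX as paclitaxel, and 2E' as the immunoactive polymer that the title speaks of. The same polymer and drug with a negative-control siRNA (siNeg, n = 4, day 7) and untreated tumours (n = 3, day 0) are used below to place values. Their libraries also entered the fit, so they share in the estimate of spread behind the main edgeR p-values. Polymer, drug and siRNA came together in the siPD-L1 group, so their parts in a difference from D5W cannot be told apart. The ages of the mice were not given in the sources used here, and no label states that each library is a separate mouse, so p-values measure the spread between these libraries.

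Proteins bound for the cell surface or for secretion enter the endoplasmic reticulum through the Sec61 channel, are glycosylated and folded there, and leave in vesicles coated by COPII. Chaperones that escape are caught in the Golgi by KDEL receptors and carried back in COPI vesicles. Cells adjust this machinery through the unfolded protein response, and adjust amino acid supply through the transcription factor Atf4 and antioxidant defence through Nrf2. Paclitaxel stabilises microtubules and arrests dividing cells in mitosis. PD-L1, a surface ligand, restrains T cells that carry the receptor PD-1.

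The unit throughout is CPM, a gene's counts relative to its library's total, after TMM scaling. Library totals were 73097625 to 85941309 counts with D5W and 66675296 to 84429746 counts with siPD-L1. Of 37409 deposited genes, 17141 had enough counts to be tested, and the biological coefficient of variation was 16.6%. Pigment-cell genes were high in all 7 libraries, from 6480 to 8400 CPM for Dct and from 3870 to 5790 CPM for Tyrp1, both enzymes of melanin synthesis. The implanted line is given as CT26 (from a colon carcinoma) in 1 label and as B16F10 (from a melanoma) in the protocol text. The 10 intestinal markers summed to 7.70 to 10.3 CPM and the 16 melanocyte markers to 24200.0 to 29500.0 CPM. Of the intestinal markers, Epcam, Cdx1, Cdx2, Krt20, Krt8 and Krt18 stayed at or below 0.128 CPM, while Vil1, Lgals4 and Cdh1 had medians of 3.86, 2.22 and 2.02 CPM. The pigment genes go against the label CT26. D5W replicate 3 stood apart from all other libraries on the first principal component (31.2% of the variance) and had 26698 genes detected against 23321 and 23525 in the other D5W libraries. In siPD-L1 replicate 1, the ribosomal RNA-like gene ENSMUSG00000098178 took 9.71% of all counts. The values that moved most without these libraries are given beside the results.

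Cd274, the gene for PD-L1 and the siRNA's target, did not differ detectably between siPD-L1 and D5W. It measured 14.8, 13.8 and 18.5 CPM in the D5W libraries and 15.8, 16.5, 17.0 and 20.8 CPM in the siPD-L1 libraries. The groups overlapped, since D5W replicate 3 lay above 3 of the 4 siPD-L1 libraries. The log2 fold change was 0.16 ± 0.17 (SE, edgeR adjusted p = 0.913, n = 4 and 3; exact 2-sided permutation p = 0.343 over 35 assignments). Over 17 alternative settings it ran from 0.07 to 0.34, with adjusted p from 0.696 to 1.0. The siNeg libraries held 17.6, 31.6, 28.8 and 21.6 CPM. Against them Cd274 had a log2 fold change of -0.50 ± 0.16 with siPD-L1, which did not pass either (edgeR adjusted p = 0.515). These values come from whole tumours, where fewer cells of a type and less RNA per cell cannot be told apart.

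By edgeR, 5 genes passed an adjusted p of 0.05 and all 5 fell with siPD-L1, which is 0.0292% of the genes tested; 0 rose. They were Kdelr3, Sec24d, Prrc1, Bcat1 and Nnmt. Before adjustment, 820 genes (4.78%) were lower and 555 (3.24%) were higher at p under 0.05. In 529 genes (3.09%) every siPD-L1 library lay below every D5W library, and in 455 genes (2.65%) every one lay above, which together is 5.74%. The log2 fold change was below 0 for 48.1% of tested genes. DESeq2 called 140 lower (0.817%) and 46 higher genes (0.268%) on the same libraries. Between siNeg and D5W, edgeR called 14 lower (0.0817%) and 4 higher genes (0.0233%), against the same D5W libraries.

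Kdelr3 encodes a KDEL receptor, which returns escaped chaperones from the Golgi to the endoplasmic reticulum (ENSMUSG00000010830, chromosome 15, 79516411 to 79527739, plus strand, GRCm38 with GENCODE M21). It measured 13.2, 12.4 and 12.8 CPM with D5W and 5.67, 6.92, 5.92 and 6.62 CPM with siPD-L1. Every siPD-L1 library lay below every D5W library, and the range within each group was narrow beside the gap. Kdelr3 fell 2.03-fold (log2 fold change -1.02 ± 0.14 SE, edgeR adjusted p = 0.0205, n = 4 and 3). It had already fallen from day 0 (17.6 ± 1.80 CPM, SD) to D5W (12.8 ± 0.396 CPM; log2 fold change -0.46, edgeR adjusted p = 0.0393), a comparison in which 9.69% of all genes fell. The siNeg libraries averaged 6.05 ± 1.21 CPM (SD), and siPD-L1 differed from siNeg by 0.05 ± 0.13 on the log2 scale (edgeR adjusted p = 0.911). Kdelr3 overlaps Ddx17 on the opposite strand. Other genes given here also overlap genes on the opposite strand, among them Cd274, Prrc1, Bcat1, Dnajb9, Sec16b, Sec23a, Sec61a1, Psph, Slc7a11, Adm, Map3k12 and Prdm16, and since the strand setting of the counting is not given in the sources used here, reads of such pairs may not be told apart.

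Sec24d, a cargo-binding subunit of the COPII coat, also fell (ENSMUSG00000039234, chromosome 3, 123267455 to 123365641). It measured 83.7, 82.2 and 92.9 CPM with D5W and 62.8, 56.4, 59.0 and 63.1 CPM with siPD-L1, so the groups did not overlap. The log2 fold change was -0.52 ± 0.08 (edgeR adjusted p = 0.0416). Prrc1, on chromosome 18, is known to act on COPII coats at exit sites. It measured 70.0, 68.4 and 69.4 CPM with D5W and 51.0, 54.3, 51.5 and 55.3 CPM with siPD-L1. Its fall was small, and the D5W libraries lay close together and above all siPD-L1 libraries (log2 fold change -0.38 ± 0.06, edgeR adjusted p = 0.0340). In siNeg, Sec24d averaged 62.2 CPM and Prrc1 56.4 CPM, and siPD-L1 differed from these by -0.04 ± 0.07 and -0.09 ± 0.05 on the log2 scale (edgeR adjusted p = 0.863 and 0.648).

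Bcat1 encodes the cytosolic enzyme that takes the amino group from branched-chain amino acids (ENSMUSG00000030268, chromosome 6, 144993835 to 145076184). It measured 100, 110.0 and 114 CPM with D5W and 71.4, 66.3, 71.1 and 80.9 CPM with siPD-L1. The highest siPD-L1 library, replicate 4, stayed below the lowest D5W library, and the log2 fold change was -0.58 ± 0.07 (edgeR adjusted p = 0.0205). Nnmt methylates nicotinamide with S-adenosylmethionine (ENSMUSG00000032271, chromosome 9, 48591877 to 48605153). It measured 6.74, 7.25 and 6.48 CPM with D5W and 2.91, 2.43, 3.46 and 4.11 CPM with siPD-L1. Nnmt fell 2.11-fold without overlap (log2 fold change -1.08 ± 0.16, edgeR adjusted p = 0.0340). Its siNeg mean of 4.37 CPM lay between the means of both groups, and siPD-L1 was lower than siNeg by a log2 fold change of -0.44 ± 0.15 that did not pass (edgeR adjusted p = 0.523). For Bcat1 that difference was -0.19 ± 0.07 (edgeR adjusted p = 0.527).

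**Figure D1:**
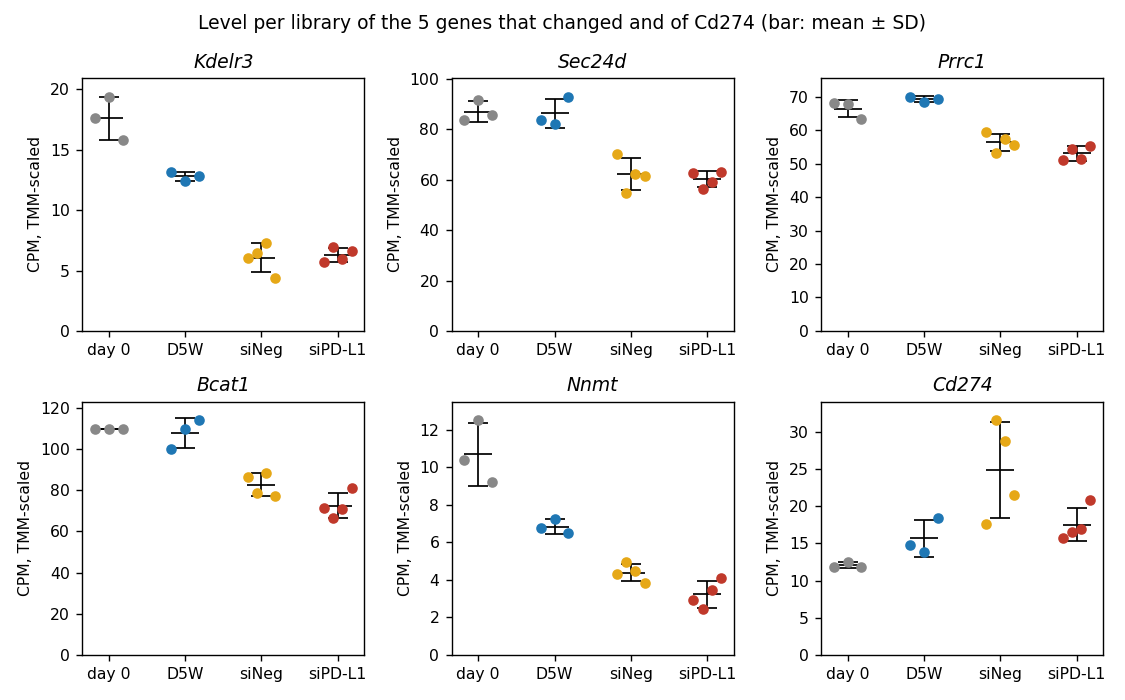
CPM of Kdelr3, Sec24d, Prrc1, Bcat1, Nnmt and Cd274 in each of the 14 libraries, with untreated day 0 tumours in grey, D5W in blue, siNeg in yellow and siPD-L1 in red; bars mark the group mean ± SD. In the first 5 genes every siPD-L1 point lies below every D5W point and the siNeg points lie near or between them, while the D5W and siPD-L1 points of Cd274 overlap.

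The calls depended on single libraries and on the groups in the fit. With only D5W and siPD-L1 in the fit, 1 gene passed, and it was not among the 5 genes named above. Without siPD-L1 replicate 1 or without replicate 2 the count was 0, without replicate 3 it was 1 gene, which was higher, and without replicate 4 it was 6. Without D5W replicate 1 it was 2, without replicate 2 it was 8, and without replicate 3 it was 10, of which 5 were higher. In each of the 5 genes the exact 2-sided permutation p was 0.0286, the smallest that 4 against 3 libraries allow. The genes were picked by edgeR's p from the same libraries, so this value is no separate support. Of all genes, 5.74% had groups that did not overlap. The effect sizes moved less: over 17 settings the log2 fold change ran from -1.11 to -0.97 for Kdelr3, from -0.61 to -0.45 for Sec24d, from -0.47 to -0.36 for Prrc1, from -0.66 to -0.51 for Bcat1 and from -1.22 to -0.97 for Nnmt.

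**Figure D2:**
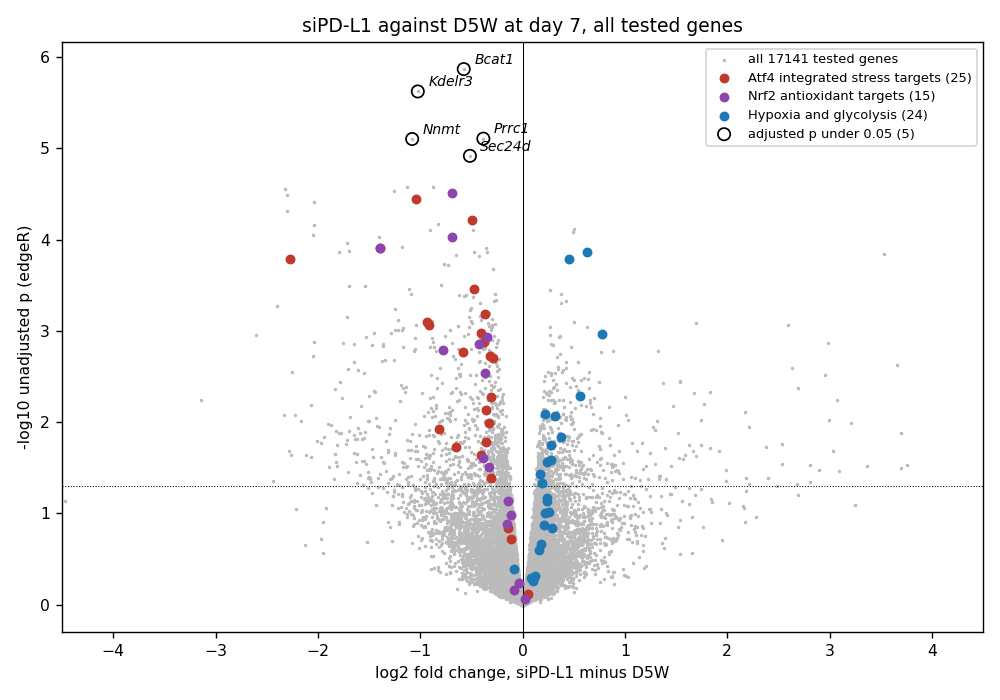
Log2 fold change (siPD-L1 minus D5W, horizontal) against -log10 of the unadjusted edgeR p (vertical) for 17141 tested genes, each a point; circles mark the 5 genes with adjusted p under 0.05, colours mark members of the Atf4, Nrf2 and hypoxia lists, and the dotted line marks the unadjusted threshold. The 5 circled genes lie left of 0, the Atf4 and Nrf2 members lie mostly to the left and the hypoxia members mostly to the right.

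The machinery of the secretory pathway was lower as a broad group, by small amounts. Of 128 tested genes in 8 lists, 2 passed the adjusted test (Kdelr3 and Sec24d), 49 were lower and 0 higher at unadjusted p under 0.05, where 4.78% and 3.24% of all genes were. The groups did not overlap for 31 members, all lower, against 3.09% of all genes, and 109 of 128 had a log2 fold change below 0. The median was -0.16, beside 0.01 over all genes. Without D5W replicate 3 and siPD-L1 replicate 1 together, 56 members were lower at p under 0.05, where 4.63% of all genes were, and the median was -0.16. In that setting 0 members passed the adjusted test. Over the 17 settings the count ran from 35 without D5W replicate 2 to 71 with library totals only. It was 36 with only the 2 groups in the fit, and the median ran from -0.25 to -0.14. The siNeg libraries had a median of -0.16 against the same D5W libraries, which both comparisons share, and the direct median of siPD-L1 against siNeg was 0.00.

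Among the KDEL receptors the difference was uneven. Kdelr2 measured 137, 130.0 and 106 CPM with D5W and 93.4, 118, 91.6 and 100 CPM with siPD-L1 (log2 fold change -0.31 ± 0.10, edgeR adjusted p = 0.333). Kdelr1 measured 89.2, 95.6 and 55.7 CPM with D5W and 63.3, 71.9, 64.1 and 78.4 CPM with siPD-L1 (log2 fold change -0.21 ± 0.14, edgeR adjusted p = 0.788). Both overlapped between groups, with D5W replicate 3 the lowest D5W library in each. Per kilobase of exon, the level with D5W was 68.0 CPM for Kdelr2, 42.8 for Kdelr1 and 9.06 for Kdelr3, so the receptor that fell was also the scarcest of the family. With siPD-L1 the level per kilobase was 55.1, 37.0 and 4.45 CPM in the same order.

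The 4 Sec24 paralogs, which give COPII vesicles their choice of cargo, also differed among themselves. Sec24a measured 66.6, 60.8 and 71.1 CPM with D5W and 54.5, 55.5, 52.1 and 53 CPM with siPD-L1, without overlap, at a log2 fold change of -0.30 ± 0.07 (edgeR adjusted p = 0.172). Sec24b averaged 101 CPM in both groups, and Sec24c 142 and 138 CPM, with log2 fold changes of 0.00 ± 0.08 and -0.04 ± 0.07 (edgeR adjusted p = 0.998 and 0.953). The sign for both genes varied among settings. The inner-coat partner Sec23a measured 88.4, 84.2 and 91.8 CPM with D5W and 65.8, 77, 77.6 and 66.3 CPM with siPD-L1, also without overlap (-0.30 ± 0.07, edgeR adjusted p = 0.172). Its paralog Sec23b was at -0.12 ± 0.06 (edgeR adjusted p = 0.653). Of 18 COPII and exit-site genes, 8 were lower and 0 higher at unadjusted p under 0.05, where 4.78% and 3.24% of all genes were.

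Sec16b, which helps to organise exit sites, had the lowest log2 fold change of the secretory genes. It measured 1.70, 1.96 and 4.03 CPM with D5W and 0.983, 0.834, 0.671 and 0.630 CPM with siPD-L1. The groups did not overlap, and D5W replicate 3 was far above the other D5W libraries (-1.72 ± 0.33, edgeR adjusted p = 0.0714). At the channel into the reticulum, Sec61a1 measured 705, 707 and 677 CPM with D5W and 538, 574, 524 and 543 CPM with siPD-L1 (-0.35 ± 0.07, edgeR adjusted p = 0.0714). Stt3a, a catalytic subunit of the enzyme that attaches N-glycans, measured 316, 327 and 362 CPM with D5W and 280.0, 249, 260.0 and 263 CPM with siPD-L1 (-0.35 ± 0.07, edgeR adjusted p = 0.0714). Both pairs of groups were clear of each other, and neither gene passed.

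Among endoplasmic reticulum chaperones and folding enzymes, 12 of 24 were lower at unadjusted p under 0.05, where 4.78% of all genes were, and the median was -0.21. Pdia5, a disulfide isomerase, averaged -0.42 ± 0.10 (edgeR adjusted p = 0.178) and Hyou1, a large chaperone of the lumen, -0.35 ± 0.11 (0.351), both without overlap. Dnajb9, a co-chaperone induced by misfolded proteins, measured 55.8, 61.6 and 80.2 CPM with D5W and 55.7, 33.3, 39.8 and 38.7 CPM with siPD-L1. Replicate 1 of siPD-L1 lay just below the lowest D5W library and the others far below, and the log2 fold change of -0.65 ± 0.19 did not pass (edgeR adjusted p = 0.264). The count for this list was 6 without D5W replicate 2 or 3 and 7 without siPD-L1 replicate 4. Of 17 sensors of the unfolded protein response and genes for disposal of misfolded proteins, 7 were lower at the same unadjusted threshold. Among them were the sensor Ern1 (-0.38 ± 0.12, edgeR adjusted p = 0.310), the ubiquitin ligase Syvn1 (-0.29 ± 0.09, 0.295) and Selenos (-0.49 ± 0.12, 0.172).

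The other secretory lists held smaller differences. Of 22 translocon and signal peptidase genes 9 were lower at unadjusted p under 0.05 (median -0.17), of 14 COPI coat genes 5 (median -0.13), of 19 cargo receptors 4 (median -0.07) and of 11 oligosaccharyltransferase subunits 2 (median -0.15). In each of these 4 lists 0 were higher. Of all genes, 4.78% were lower and 3.24% higher at that threshold. Without D5W replicate 3 the oligosaccharyltransferase count was 8, and without D5W replicate 2 it was 1. The translocon count was 5 and the cargo receptor count 2 without D5W replicate 2. The cargo receptor count was also 2 without siPD-L1 replicate 3, and the COPI count was 3 without siPD-L1 replicate 1, 3 or 4. Collagen-processing enzymes, which work on one class of secreted protein, went both ways, with 3 of 20 higher and 7 lower. The number lower was 2 without D5W replicate 1, 3 without siPD-L1 replicate 2 or 3, and 4 without D5W replicate 3 or siPD-L1 replicate 4, while the number higher was 1 without D5W replicate 3. Plod2, a lysyl hydroxylase, measured 283, 275 and 256 CPM with D5W and 333, 332, 349 and 293 CPM with siPD-L1 (0.27 ± 0.07, edgeR adjusted p = 0.177). The prolyl hydroxylases P3h1 and P3h2 were at -0.32 ± 0.10 and -0.38 ± 0.09 (edgeR adjusted p = 0.310 and 0.181).

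**Figure D3:**
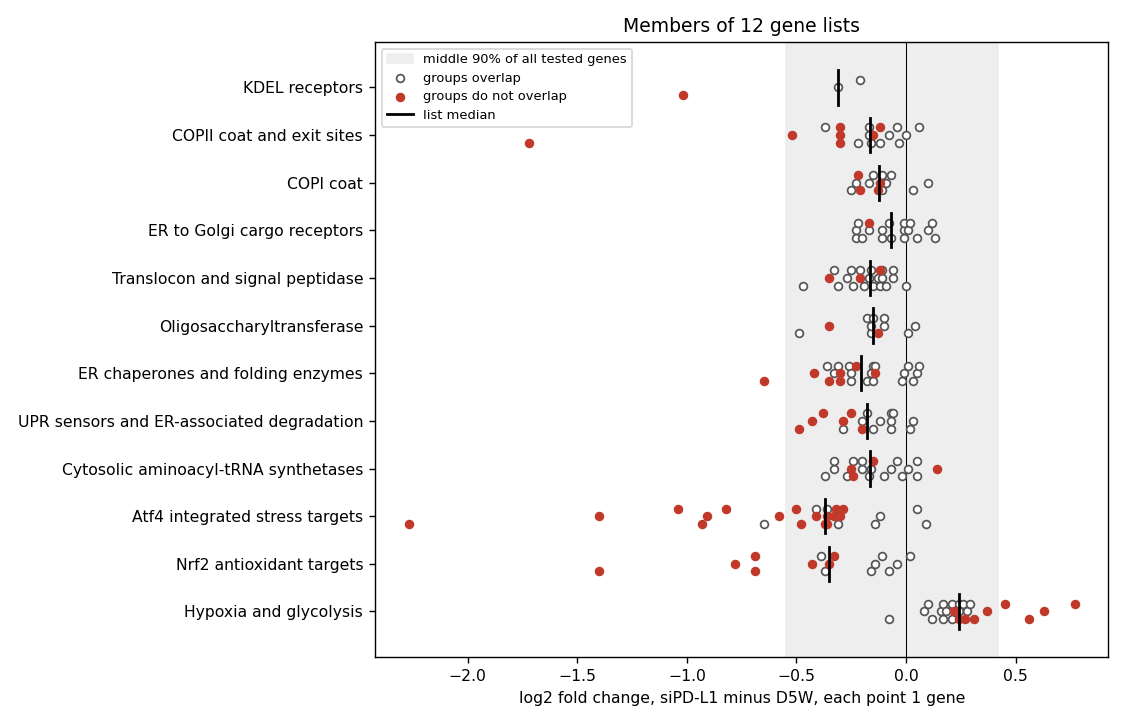
Log2 fold change (siPD-L1 minus D5W, horizontal) of each tested member of 12 lists (rows); filled red points are genes whose groups do not overlap, open points overlap, black bars mark list medians and the grey band holds the middle 90% of all tested genes. The medians of the 8 secretory lists lie left of 0 inside the band, Atf4 and Nrf2 at -0.37 and -0.35, and hypoxia at 0.24.

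Promoter sequence of secretory genes is shown here because the groups of letters read by unfolded protein response factors recur in it. The windows are the 250 bases before each RefSeq start (GRCm38.p6), searched on both strands, and 106 of the 128 genes had one. TGACGTG, the core of the element bound by Xbp1 and Atf6, occurred in 10 of these 106 windows (9.43%), against 1.85% of 27025 genes. The 10 genes were Arf1, Copb1, Gbf1, Hspa5, Kdelr3, Mia3, Sec16b, Sec24d, Srpr and Txndc5. Sec16b, Kdelr3 and Sec24d were 3 of the 4 secretory genes with the lowest log2 fold changes. The other 7 lay between -0.30 for Hspa5 and -0.07 for Copb1. The endoplasmic reticulum stress element (CCAAT, then 9 bases of any kind, then CCACG) occurred in 8 of 106 windows (7.55%), against 0.13% of all genes. Those genes were Calr, Canx, Creld2, Dnajc3, Hsp90b1, Hspa5, Pdia6 and Syvn1, with log2 fold changes from -0.30 for Hspa5 to -0.02 for Canx. The same letters TGACGTG occurred in 3 of 22 windows (13.6%) of the hypoxia list, whose members were mostly higher, and the shorter ACGTG in 48 of the 106 secretory windows (45.3%), against 18.5% of all genes. The core of the antioxidant element, TGACNNNGC with N for any base, occurred in 20 of the 106 (18.9%), against 11.5% of all genes. Kdelr3, Sec16b and Sec24d were among the 20, and the letters marked below in these genes lie inside such a match. The lists group genes of known function and were chosen with earlier results known, so these shares are a description, and a match is not evidence of binding. Capitals mark the element, and for genes whose window overlaps an annotated exon at that place only the element and its flanks are given, 5′ to 3′.
Kdelr3 (chr15:79516158-79516407, plus strand): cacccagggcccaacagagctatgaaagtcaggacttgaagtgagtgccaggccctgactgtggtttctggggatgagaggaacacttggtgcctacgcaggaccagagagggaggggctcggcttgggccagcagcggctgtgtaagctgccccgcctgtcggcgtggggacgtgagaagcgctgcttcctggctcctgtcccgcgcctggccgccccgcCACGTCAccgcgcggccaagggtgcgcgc
Sec24d (chr3:123267459-123267487, plus strand): gcccgggcgccTGACGTGgcactagcaac
Sec16b (chr1:157506741-157506769, plus strand): ttctgtgtggcTGACGTGgcacggcagtt
Hspa5 (chr2:34772020-34772048, plus strand): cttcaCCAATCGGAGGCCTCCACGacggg

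In Kdelr3 the element stands on the opposite strand, as CACGTCA, and begins 29 bases before the RefSeq start. In Sec24d it begins 26 bases and in Sec16b 44 bases before the RefSeq start, which in Sec16b is 1 of 2 listed. In both genes the element overlaps an exon annotated by GENCODE. Hspa5 encodes BiP, the main chaperone of the reticulum, and its stress element begins 65 bases before the start.

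Genes that Atf4 is known to switch on, for amino acid supply and in other stress responses, were lower in most members. The list also holds Atf4. Of 25 tested genes, 0 passed the adjusted test, 21 were lower and 0 higher at unadjusted p under 0.05, and 17 did not overlap between groups, where 4.78%, 3.24% and 3.09% of all genes did so. The median was -0.37. Over the settings run the count at p under 0.05 stayed between 17 and 22 of 25 and the median between -0.47 and -0.32. DESeq2 called 13 of the 25, and edgeR 1 without D5W replicate 1 or siPD-L1 replicate 4. The 2 members above 0, named after their values were seen, were Ppp1r15a (0.05 ± 0.16) and Ddit3 (0.09 ± 0.14), and Atf4 itself was at -0.12.

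Slc7a11 imports cystine in exchange for glutamate. It measured 52.1, 62.7 and 96.2 CPM with D5W and 31.4, 13.3, 34.1 and 28.0 CPM with siPD-L1. The groups did not overlap, D5W replicate 3 was the highest library and siPD-L1 replicate 2 the lowest (log2 fold change -1.40 ± 0.26, edgeR adjusted p = 0.0714). Cth makes cysteine from cystathionine, and it measured 15.0, 22.1 and 23.2 CPM with D5W and 8.65, 6.96, 11.3 and 12.1 CPM with siPD-L1 (-1.04 ± 0.18, edgeR adjusted p = 0.0507). Psph, the last enzyme of serine synthesis, measured 33.0, 42.0 and 36.8 CPM with D5W and 24.7, 25.0, 25.3 and 30.4 CPM with siPD-L1 (-0.50 ± 0.09, edgeR adjusted p = 0.0670). In Cth and Psph, too, every siPD-L1 library was below every D5W library. Fgf21 encodes a hormone induced by nutrient stress. It measured 7.17, 6.43 and 7.02 CPM with D5W and 1.19, 0.876, 2.38 and 1.23 CPM with siPD-L1, a 4.82-fold lower level without overlap (-2.27 ± 0.44, edgeR adjusted p = 0.0736).

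Set against siNeg, the Atf4 list had a median of -0.30, beside 0.00 for the secretory genes, and 14 of 25 members were lower at unadjusted p under 0.05, where 4.22% of all genes were. In that comparison 0 genes of all tested passed edgeR's adjusted test, with 724 lower and 747 higher (4.36%) before adjustment. Psph averaged 33.0 CPM in siNeg and 26.3 in siPD-L1 (log2 fold change -0.33 ± 0.08, edgeR adjusted p = 0.462). Slc7a11 averaged 37.4 and 26.7 CPM (-0.49 ± 0.24, edgeR adjusted p = 0.600), and Cth 12.4 and 9.74 CPM (-0.35 ± 0.17, edgeR adjusted p = 0.582). Fgf21 measured 1.22 CPM in siNeg and 1.42 CPM in siPD-L1 on average (0.21 ± 0.43, edgeR adjusted p = 0.895). The siPD-L1 library with the lowest mean over the Atf4 list was replicate 2, at 5.49 log2 CPM, while the other 3 ran from 5.85 to 6.03, siNeg from 6.04 to 6.20 and D5W from 6.24 to 6.46.

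Windows before the starts of 23 Atf4-list genes were searched for TTGCATCA, a composite element bound by Atf4 with a C/EBP partner. It occurred in 6 of them (26.1%), against 0.918% of all genes. The 6 were Fgf21, Slc7a11, Nupr1, Pycr1, Vldlr and Chac1, and their log2 fold changes were -2.27, -1.40, -0.93, -0.65, -0.41 and -0.31. Cth (-1.04), Atf5 (-0.91) and Cebpb (-0.82) were not among the 6 and lay below Pycr1, Vldlr and Chac1. The list is made of known Atf4 targets and was chosen with earlier results known. The share is therefore a description, and a match is not evidence of binding. The windows of the 2 lowest genes are printed to show the element in place, with its letters in capitals.
Slc7a11 (chr3:50443615-50443863, minus strand): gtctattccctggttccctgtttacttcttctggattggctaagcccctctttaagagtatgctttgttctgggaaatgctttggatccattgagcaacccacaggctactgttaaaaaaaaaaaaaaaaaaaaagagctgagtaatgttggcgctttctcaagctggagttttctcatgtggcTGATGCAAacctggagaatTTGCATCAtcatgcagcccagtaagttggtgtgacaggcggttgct
Fgf21 (chr7:45615491-45615740, minus strand): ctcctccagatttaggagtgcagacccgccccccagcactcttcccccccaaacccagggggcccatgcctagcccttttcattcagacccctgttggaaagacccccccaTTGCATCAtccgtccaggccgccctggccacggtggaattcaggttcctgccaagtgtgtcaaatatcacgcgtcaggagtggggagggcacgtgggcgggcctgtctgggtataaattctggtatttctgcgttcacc

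Slc7a11 holds the element 2 times, once on each strand, which is a description of these letters only.

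Cytosolic aminoacyl-tRNA synthetases, which load tRNAs and include known Atf4 targets, were lower in 11 of 20 and higher in 1 at unadjusted p under 0.05, where 4.78% and 3.24% of all genes were, with a median of -0.17. Gars, the glycine enzyme, measured 558, 596 and 572 CPM with D5W and 482, 448, 510.0 and 511 CPM with siPD-L1, without overlap (-0.24 ± 0.07, edgeR adjusted p = 0.259). Eprs measured 569, 625 and 858 CPM with D5W and 582, 459, 550.0 and 534 CPM with siPD-L1 (-0.37 ± 0.12, edgeR adjusted p = 0.356). The D5W level of Eprs was set largely by replicate 3, and siPD-L1 replicate 1 overlapped with D5W. Without D5W replicate 3 the count fell to 4 of 20, without siPD-L1 replicate 2 to 6 and without siPD-L1 replicate 3 to 7. In the breakdown of branched-chain amino acids, the pathway that Bcat1 opens, Bcat1 alone was lower at p under 0.05 and 2 of 14 were higher, Mccc1 (0.15 ± 0.06, edgeR adjusted p = 0.473) and Mccc2 (0.18 ± 0.08, 0.589), and the median was 0.03.

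Antioxidant genes under Nrf2 were lower in 9 of 15 at unadjusted p under 0.05, and 7 did not overlap, where 4.78% and 3.09% of all genes did so; 0 passed edgeR's adjusted test and the median was -0.35. Without D5W replicate 3 and siPD-L1 replicate 1 together 2 members passed, and DESeq2 called 6. Hmox1, which degrades haem, measured 242, 213 and 226 CPM with D5W and 169, 148, 131 and 115 CPM with siPD-L1. No siPD-L1 library reached the D5W range (log2 fold change -0.69 ± 0.12, edgeR adjusted p = 0.0507). Srxn1, which restores oxidised peroxiredoxins, measured 58.2, 57.2 and 81.3 CPM with D5W and 49.2, 39.8, 34.0 and 39.1 CPM with siPD-L1 (-0.69 ± 0.13, edgeR adjusted p = 0.0670). Fth1, the iron-storing ferritin heavy chain, measured 1910.0, 1980.0 and 1770.0 CPM with D5W and 1560.0, 1600.0, 1300.0 and 1470.0 CPM with siPD-L1 (-0.35 ± 0.09, edgeR adjusted p = 0.177). Slc7a11 belongs to this list as well as to the Atf4 list. Against siNeg the Nrf2 list had a median of -0.01, with 0 of 15 lower at p under 0.05. Hmox1 had fallen from 383 CPM at day 0 to 227 CPM with D5W (log2 fold change -0.75, edgeR adjusted p = 0.0015).

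**Figure D4:**
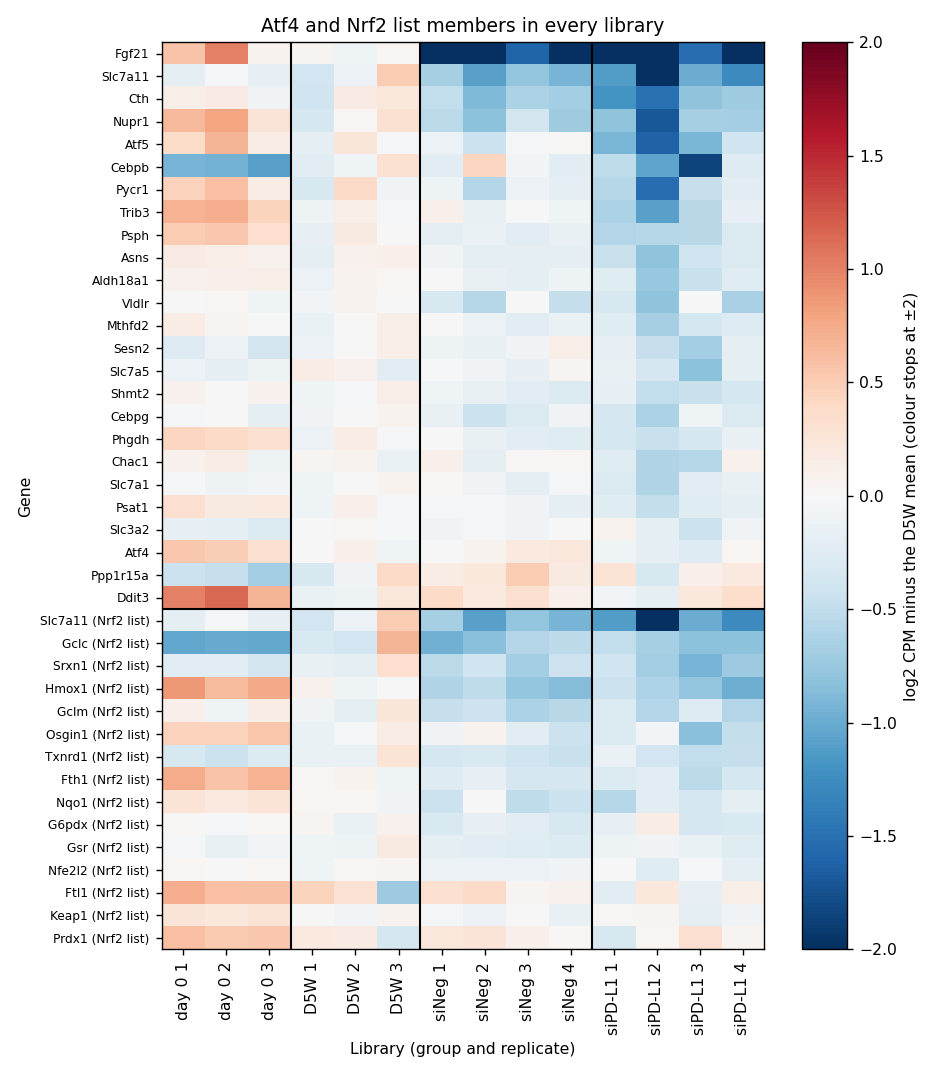
Log2 CPM of each Atf4-list gene (upper block) and Nrf2-list gene (lower block) minus its D5W mean, in all 14 libraries (columns); blue is below and red above the D5W mean, and colour stops at 2 in either direction. The siPD-L1 columns are mostly blue in both blocks, deepest for Fgf21 and Slc7a11 and for replicate 2 in the Atf4 block, and the siNeg columns are paler in the Atf4 block than in the Nrf2 block.

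Genes induced by low oxygen and for glycolysis were higher in 12 of 24 at unadjusted p under 0.05, where 3.24% of all genes were, with 0 lower. Of the 24, 23 had a log2 fold change above 0. The groups did not overlap for 9, all higher, where 2.65% of all genes did so; 0 passed edgeR's adjusted test, DESeq2 called 3 and the median was 0.24. Vegfa, the main growth factor for blood vessels, measured 277, 266 and 222 CPM with D5W and 355, 352, 356 and 336 CPM with siPD-L1 (log2 fold change 0.45 ± 0.09, edgeR adjusted p = 0.0736). Adm, a vasodilator peptide, measured 25.9, 24.4 and 17.4 CPM with D5W and 37.8, 35.8, 35.7 and 30.2 CPM with siPD-L1 (0.63 ± 0.12, edgeR adjusted p = 0.0714). Ankrd37, a target of hypoxia-inducible factor, measured 5.71, 5.71 and 3.09 CPM with D5W and 6.57, 9.09, 8.74 and 8.71 CPM with siPD-L1 (0.77 ± 0.19, edgeR adjusted p = 0.177). In these 3 genes D5W replicate 3 was the lowest library of all 7. Without it the count was 5 of 24 and the median 0.12, without siPD-L1 replicate 1 in addition they were 7 and 0.13, and without D5W replicate 1 the count was 19.

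Levels at day 0 place these genes. Adm averaged 54.0 CPM at day 0, 22.5 with D5W and 34.9 with siPD-L1. Adm fell from day 0 to D5W by 1.26 and from day 0 to siPD-L1 by 0.63 on the log2 scale (edgeR adjusted p = 4.65e-05 and 0.00283). Vegfa averaged 332, 255 and 350 CPM in the same order. Its siPD-L1 level differed from day 0 by 0.07 on the log2 scale (edgeR adjusted p = 0.592), while D5W had fallen (-0.38, 0.0136). Against siNeg the hypoxia list had a median of -0.06 and 0 of 24 members at p under 0.05. The hypoxia element core ACGTG occurred in 15 of 22 windows (68.2%), against 18.5% of all genes; these letters also lie inside TGACGTG.

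Beyond the genes that changed, the 5 lower genes with the next smallest p under the naming rule were Steap1, Cdsn, Hoxb9, Hmox1 and Cth, each with edgeR adjusted p = 0.0507. Cdsn, an adhesion protein best known from cornified skin, measured 10.4, 12.4 and 14.5 CPM with D5W and 2.57, 2.06, 2.71 and 2.61 CPM with siPD-L1. That 5.0-fold lower level (log2 fold change -2.32 ± 0.38) came without overlap, and siNeg lay in the siPD-L1 range and beyond it, from 0.893 to 3.62 CPM. Hoxb9, a homeobox transcription factor, measured 14.4, 16.8 and 21.4 CPM with D5W and 8.65, 4.32, 7.68 and 8.77 CPM with siPD-L1 (-1.25 ± 0.21). Steap1, a membrane protein of the metalloreductase family, measured 6.69, 6.34 and 7.86 CPM with D5W and 4.17, 3.27, 4.18 and 3.51 CPM with siPD-L1 (-0.88 ± 0.15). Groups were clear of each other for all 5.

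None of the 10 higher genes named by the same rule passed. They were Map3k12, Prdm16, Adm, Vegfa, Zgpat, Jmjd6, Enpp2, Syde2, Hsph1 and Neu1, with log2 fold changes from 0.27 to 0.63 and adjusted p from 0.0670 to 0.172. Map3k12, a kinase of stress signalling, measured 9.84, 10.3 and 8.43 CPM with D5W and 12, 13.4, 14 and 14.5 CPM with siPD-L1 (0.50 ± 0.09, edgeR adjusted p = 0.0670). Prdm16, a regulator of transcription known from brown fat, measured 134, 137 and 104 CPM with D5W and 177, 192, 180.0 and 157 CPM with siPD-L1 (0.50 ± 0.09, edgeR adjusted p = 0.0670). D5W replicate 3 was the lowest library for both. Enpp2, which makes the lipid signal lysophosphatidic acid, measured 122, 127 and 110.0 CPM with D5W and 154, 148, 185 and 157 CPM with siPD-L1 (0.43 ± 0.10, edgeR adjusted p = 0.143). The chaperone Hsph1 measured 116, 115 and 104 CPM with D5W and 167, 162, 169 and 136 CPM with siPD-L1 (0.50 ± 0.12, edgeR adjusted p = 0.172).

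Few genes of mitosis and microtubules, the processes paclitaxel acts on, differed from D5W at day 7. Of 25 mitosis genes 0 were higher or lower at unadjusted p under 0.05 (median 0.02), and of 19 DNA replication genes also 0 (median -0.02), where 8.02% of all genes were. Against siNeg, 5 of the 25 mitosis genes were higher and 0 lower (median 0.15), where 4.36% and 4.22% of all genes were. In that comparison 0 genes passed the adjusted test. Of 15 tubulin and microtubule genes 1 was lower (0 without D5W replicate 3, siPD-L1 replicate 2 or siPD-L1 replicate 4), Map1b, which measured 128, 126 and 158 CPM with D5W and 130.0, 106, 115 and 112 CPM with siPD-L1 (-0.25 ± 0.10, edgeR adjusted p = 0.536). Tubb4b, a beta-tubulin, was at 0.16 ± 0.10 (edgeR adjusted p = 0.759). The drug efflux pump Abcb1b was at -0.11 ± 0.09 (0.863), and 0 of 8 transport genes had p under 0.05. Of 22 p53 targets 2 were lower, Gadd45a (-0.69 ± 0.17, edgeR adjusted p = 0.184) and Sesn2 (-0.36 ± 0.12, 0.360), and the median was 0.01. Of 13 genes of the small RNA silencing machinery, which an siRNA needs, 0 had p under 0.05 and the median was -0.00. The medians of the mitosis, DNA replication, tubulin, drug transport, p53 and small RNA lists changed sign in 3 to 8 of 17 settings.

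Inflammatory cytokine genes were lower at the median but varied too much between libraries to pass. Of 16 tested genes 6 were lower at unadjusted p under 0.05, where 4.78% of all genes were, 0 passed, the groups overlapped in all 16, and the median was -0.61. Il6 measured 3.06, 0.847 and 4.22 CPM with D5W and 1.45, 0.667, 0.228 and 0.703 CPM with siPD-L1 (-1.83 ± 0.54, edgeR adjusted p = 0.296). Tnf measured 4.93, 6.39 and 8.81 CPM with D5W and 4.69, 5.35, 0.949 and 2.20 CPM with siPD-L1 (-1.03 ± 0.43, edgeR adjusted p = 0.542). In Il6, D5W replicate 2 lay inside the siPD-L1 range, and in Tnf D5W replicate 1 did. The count was 2 without D5W replicate 3, 1 without siPD-L1 replicate 4 and 3 without siPD-L1 replicate 3. It was 9 without D5W replicate 2 and 8 of 15 without siPD-L1 replicate 1. The median was -0.68 for siNeg against the same D5W libraries and 0.01 for siPD-L1 against siNeg. D5W against day 0 had a median of 2.20, with 9 of 16 called higher, where 11.8% of all genes were.

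Fibroblast and matrix genes had a median of -0.71 with 5 of 20 lower at unadjusted p under 0.05, where 4.78% of all genes were, and overlap in all 20. Col3a1, a fibrillar collagen, measured 207, 32.5 and 409 CPM with D5W and 127, 26.9, 22 and 64.2 CPM with siPD-L1 (-1.85 ± 0.80, edgeR adjusted p = 0.590). D5W replicate 2 lay within the siPD-L1 range. The summed level of the 20 markers was 1790.0, 1080.0 and 2210.0 CPM with D5W and 1590.0, 1050.0, 1030.0 and 1190.0 CPM with siPD-L1. The count was 0 without D5W replicate 3, 0 without siPD-L1 replicate 2 or 3, 1 without D5W replicate 1, 3 without siPD-L1 replicate 4, 14 without D5W replicate 2 and 15 without siPD-L1 replicate 1. Since collagen-making cells have a large secretory pathway, these sums stand beside the secretory result, and their part in it was not tested. The median of the fibroblast list was -1.15 for siNeg against the same D5W libraries and 0.38 for siPD-L1 against siNeg. Set against day 0, D5W had a median of 1.15 and siPD-L1 of 0.38.

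Macrophage genes were lower at the median of -0.40, with 2 of 16 lower at unadjusted p under 0.05, Marco and Cd163, where 4.78% of all genes were. Without D5W replicate 3 the median was -0.12 with 1 lower, and without siPD-L1 replicate 3 it was -0.20 with 3 lower. The 17 macrophage markers summed to 186, 198 and 311 CPM with D5W and 201, 209, 93.6 and 187 CPM with siPD-L1; Itgam was listed at 0 in all 7 libraries. The sums overlapped, with D5W replicate 3 the highest and siPD-L1 replicate 3 the lowest. Marco, a scavenger receptor, measured 0.532, 0.214 and 1.63 CPM with D5W and 0.182, 0.139, 0.139 and 0.132 CPM with siPD-L1 (-2.40 ± 0.54, edgeR adjusted p = 0.153). The pattern recognition list had 1 of 24 higher, Irak4 (0.25 ± 0.08, edgeR adjusted p = 0.315), and 1 lower, the NF-kB subunit Rel (-0.46 ± 0.13, 0.256), shares near the 3.24% and 4.78% of all genes.

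Cytotoxic genes were near the floor of detection. Gzma, a granzyme of killer cells, measured 0.0591, 0.0452 and 0.205 CPM with D5W and 0.323, 0.403, 0.241 and 0.410 CPM with siPD-L1, without overlap (1.74 ± 0.59, edgeR adjusted p = 0.392). Prf1, which forms pores in target cells, measured 0.118, 0.0903 and 0.513 CPM with D5W and 0.519, 0.528, 0.190 and 0.747 CPM with siPD-L1 (1.05 ± 0.61, edgeR adjusted p = 0.739). The 15 NK and cytotoxic markers summed to 2.09, 1.32 and 5.43 CPM with D5W and 4.91, 4.93, 2.35 and 5.54 CPM with siPD-L1. D5W replicate 3 thus held nearly as much as the highest siPD-L1 library. Of 13 tested markers 1 was higher at unadjusted p under 0.05 (median 0.35), where 3.24% of all genes were. Without D5W replicate 3 the count was 4 and the median 1.09, and without D5W replicate 2 the median was -0.08. Of 18 T cell markers 0 had p under 0.05 against D5W (median 0.18), and the sums were 11.4, 10.7 and 19.4 CPM with D5W and 15.4, 13.7, 10.1 and 15.6 CPM with siPD-L1. Without D5W replicate 3, 2 T cell markers were higher and the median was 0.71, and without siPD-L1 replicate 3 it was 0.41. Without D5W replicate 2 it was -0.12 and without siPD-L1 replicate 2 it was -0.01. Without D5W replicate 1, siPD-L1 replicate 1 or siPD-L1 replicate 4 it lay between 0.03 and 0.10, with 1 marker lower in the second case. The T cell sums in siNeg were 12.3, 22.2, 18.6 and 10.8 CPM. The T cell median was 0.56 for siNeg against D5W and -0.33 for siPD-L1 against siNeg.

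Interferon-stimulated genes, which report antiviral signalling, were compared with both groups. Of 25 type I interferon genes 2 were higher than D5W at unadjusted p under 0.05, where 3.24% of all genes were (median 0.20). The count was 0 and the median 0.10 without D5W replicate 2, and 3 and 0.32 without D5W replicate 3. Without siPD-L1 replicate 2 they were 3 and 0.31, and without siPD-L1 replicate 1 or 3 the count was 1. Oas1a, an antiviral RNA sensor, measured 9.59, 7.87 and 7.81 CPM with D5W and 10.7, 9.81, 11.5 and 10.3 CPM with siPD-L1, against 11.8, 13, 18.2 and 13.5 CPM with siNeg. The siPD-L1 libraries were above every D5W library and below every siNeg library (0.33 ± 0.13 against D5W, edgeR adjusted p = 0.536; -0.42 ± 0.12 against siNeg, edgeR adjusted p = 0.504). Against siNeg, 10 of the 25 were lower (median -0.49), where 4.22% of all genes were, and 0 passed the adjusted test. Of 20 genes of MHC class I presentation, 2 were higher than D5W (median -0.06; 0 and -0.18 without D5W replicate 2, 3 and 0.11 without D5W replicate 1) and 10 were lower than siNeg (median -0.46). Class I list means were 3.95, 4.60, 4.64 and 4.01 log2 CPM with siNeg and 4.00, 3.96, 3.57 and 4.03 with siPD-L1. Only siNeg replicates 2 and 3 lay above all siPD-L1 libraries. The non-classical class I gene H2-T23 measured 10.4, 7.45 and 8.07 CPM with D5W and 12.1, 14.9, 11.2 and 10.1 CPM with siPD-L1 (0.48 ± 0.20, edgeR adjusted p = 0.542). Its groups overlapped through siPD-L1 replicate 4. The sign of the class I median changed in 4 of 17 settings.

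**Figure D5:**
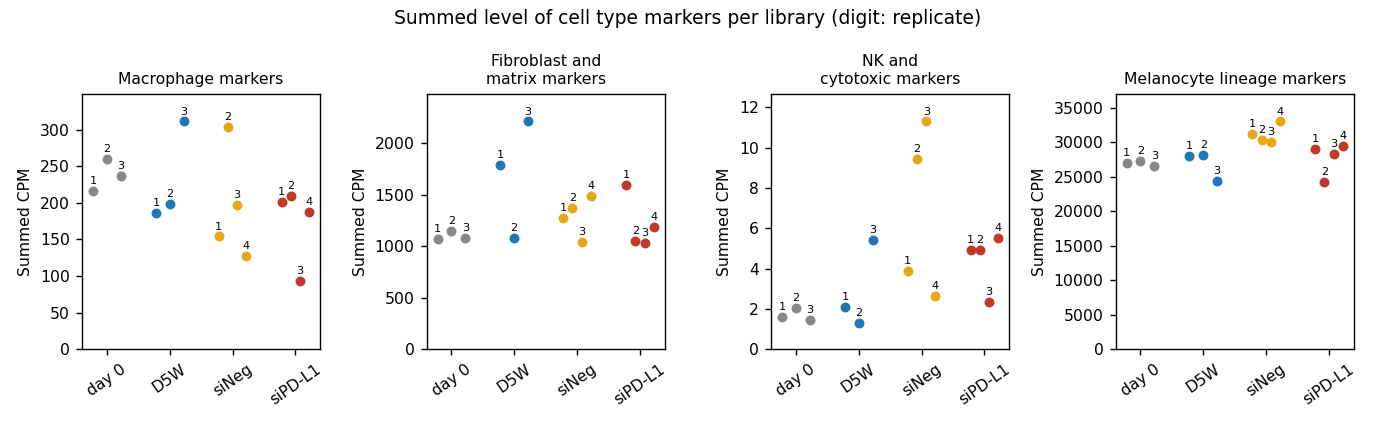
Summed CPM of macrophage, fibroblast and matrix, NK and cytotoxic, and melanocyte lineage markers in each library (digits are replicate numbers; each vertical axis starts at 0). D5W replicate 3 has the highest macrophage and fibroblast sums of the 7 D5W and siPD-L1 libraries, and melanocyte sums lie between 24200.0 and 29500.0 CPM in those 7.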

How the data were processed

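Per the labels' protocols, total RNA of whole tumours was extracted with RNeasy and made into TruSeq stranded libraries. The submitters' processing notes name FastQC 0.11.3, STAR, featureCounts and edgeR with GRCm38. For the annotation release, strand setting and other versions, nothing is given in the sources used here. Raw counts per gene and library were deposited, and no normalized values were used. All 14 libraries, with 60166278 to 85941309 counts each, entered 1 fit, so that the 4 groups shared 1 estimate of spread. Genes were kept by edgeR's filterByExpr (17141 of 37409), scaled by TMM and tested by the robust quasi-likelihood test (edgeR 4.0.16, limma 3.58.1, R 4.3.3) with Benjamini-Hochberg adjustment over all tested genes. Log2 CPM, used for overlap and list means, had a prior count of 2. A standard error is the log2 fold change divided by the square root of edgeR's F. Intervals and p-values cover the spread between libraries, whose independence the labels do not state.

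Gene names and positions came from GENCODE M21, which named 37386 of the 37409 IDs, and promoter windows from RefSeq (GRCm38.p6). The 47 gene lists and the members were chosen with earlier results of these data known. The text names Cd274, every gene past the adjusted threshold, and per direction the 10 genes with the smallest p among those with a mean of at least 1 CPM and no overlap between groups, leaving out predicted genes, antigen receptor segments and pseudogenes. It also names up to 4 members of each list by p, the KDEL receptors and the Sec24 and Sec23 genes; genes named for a promoter match fall outside that rule and were chosen after their values were seen. Alternatives were DESeq2 1.42.0, voom, other scalings and filters, only the 2 groups, a replicate block, and leaving out libraries. The code was tested on simulated data. Proteins with an endoplasmic reticulum retrieval signal were not analysed here.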

Additional observations from a re-analysis of the deposited data

Results flagged for a closer look

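Among 106 named genes, 8 had 1 siPD-L1 library far from the other 3, a gap that chance gives in about 1 in 20 groups of 4. Replicate 1 held 6 of them, and no cause was tested. Its level was 163.0 CPM for Tmed2, 26 for Irak4, 0.168 for Csf2, 0.407 for Cxcl5 and 0.182 for Marco, each the highest of the 4. It was 6.57 CPM for Ankrd37, the lowest of the 4. Psph stood out in replicate 4 at 30.4 CPM and Lars, a leucine tRNA synthetase, in replicate 2 at 103.0 CPM. Replicate 1 also stood out from its group by its most abundant gene, which held 9.71% of its counts, and by its TMM scaling factor of 0.844.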

How the results depend on the processing

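The 5 calls became 60 with library totals only, 39 with no low-count filter, 17 with CPM above 1 in at least 3 libraries, 186 with DESeq2 and 22 with voom. They became 13 without mitochondrial and ribosomal RNA-like genes, 1 with only the 2 groups, and 8 without D5W replicate 3 and siPD-L1 replicate 1. Leaving out 1 library each gave 0 to 10. Of the 5 genes, 5 were among the calls of the first 6 of these settings, and 0 with only the 2 groups or without both libraries. Library totals moved the median of all genes to -0.08, that of the Nrf2 list to -0.44 and that of the secretory genes to -0.25. With the replicate number as a block the count was 0. Deviations of same-numbered libraries from their group means correlated at -0.194, -0.0164 and -0.232, and those of other pairs at -0.408 to 0.42. These values did not show a pairing by number and are too few to exclude it. Sec24b, at 0.00, took the other sign with library totals (-0.09), no filter (-0.01), CPM above 1 (-0.01), only the 2 groups (-0.00), the replicate block (-0.03), without mitochondrial and ribosomal RNA-like genes (-0.00), and without D5W replicate 1 or 2 or siPD-L1 replicate 1 or 4; without single libraries it ran from -0.04 to 0.09. Sec24c ran from -0.11 to 0.01 without single libraries and was at 0.01 without D5W replicate 1. Over 106 genes and 1785 values, 1652 kept their direction and side of the threshold, 39 lost a call, 83 gained one and 11 changed sign. Of 748 medians of the other 44 lists, 41 moved by more than 1 SD of the list's mean log2 CPM between libraries of a group. The cause of these changes was not tested.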

Other observations

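Some gene groups outside the comparisons above varied from library to library. Erythroid markers, which follow blood content, summed to 159, 45.6 and 10.3 CPM with D5W and 76.8, 354, 43.1 and 53.8 CPM with siPD-L1. They spanned a wider range within each group than between the group medians, and 0 of 7 tested markers had unadjusted p under 0.05. Skeletal muscle markers summed to 10.9, 12.2 and 10.9 CPM with D5W and 13.4, 10.9, 8.98 and 13.4 CPM with siPD-L1. Of these markers, 3 of 12 were higher and 2 lower at unadjusted p under 0.05, where 3.24% and 4.78% of all genes were. Without siPD-L1 replicate 3 the counts were 6 and 0, and without D5W replicate 1 or siPD-L1 replicate 1, 0 were higher. Marker medians ran from 0.0556 CPM for Myh4 and Tnnc2 to 4.79 CPM for Des. Neutrophil markers summed to 3.71, 3.12 and 3.80 CPM with D5W and 6.78, 12.7, 2.16 and 3.47 CPM with siPD-L1, so replicate 2 was highest and replicate 3 lowest of all 7 libraries. Endothelial markers overlapped, at 296, 279 and 274 CPM with D5W and 290.0, 282, 230.0 and 273 CPM with siPD-L1, and 0 of 14 had p under 0.05. Cholesterol synthesis and uptake genes had a median of -0.08 with 0 of 20 at p under 0.05, and Bcl2 family genes a median of 0.06 with 0 of 14.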
